A study of Mus musculus with 38 samples.

Results

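The mitochondrially encoded respiratory genes described here are 9 protein genes of the mouse mitochondrial chromosome. They are mt-Nd1, mt-Nd2, mt-Nd4 and mt-Nd5 of complex I, mt-Cytb of complex III, mt-Co1, mt-Co2 and mt-Co3 of complex IV, and mt-Atp6 of complex V. They were taken by symbol from the deposited counts, in which each symbol has 1 row, and are 9 of the 13 protein-coding genes and of the 37 genes that the mitochondrial chromosome has among 53801 genes. Of the 9, 6 passed the filter on low counts and were tested (mt-Nd1, mt-Nd2, mt-Nd4, mt-Nd5, mt-Cytb and mt-Co1). The other 3 (mt-Co2, mt-Co3 and mt-Atp6) had 0 counts in all 38 libraries.

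Polyadenylated RNA of CD11b-positive cells sorted from brain was sequenced in bulk, as 38 libraries, with a kit that reads the 3′ ends of transcripts. All mice were C57BL/6J, 3 months old, hemizygous for a bacterial artificial chromosome with the human TREM2 gene (huTrem2 BACtg) and carried a partly human transferrin receptor on both alleles (hTfR KI), so both alleles are shared by treated and control mice. The 5 groups were Vehicle (n = 6, day 1), ATV:DNP02 at 10 mg/kg (n = 8, day 1), and DNL919 at 10 mg/kg on day 1, day 4 and day 7 after a single dose (n = 8 each). DNL919 is taken as the TREM2-activating antibody and ATV:DNP02 as the isotype control on the same transferrin receptor-binding vehicle. There were 0 control libraries of day 4 or day 7 among the 38, so the later days were set against controls of day 1, and all 3 DNL919 groups share those controls. Each group was spread over 4 takedown batches, of which 2 held females and 2 held males, so sex and those pairs of batches cannot be told apart. The labels do not say how many mice stand behind a library, and the p-values below measure the spread between libraries.

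The mitochondrial chromosome is copied from both strands into long transcripts that hold several genes each. These are cut, mostly at the transfer RNAs that lie between the genes, into messenger RNAs, ribosomal RNAs and transfer RNAs, and most of the messenger RNAs receive a short poly(A) tail. Their proteins are core subunits of respiratory complexes whose remaining subunits are encoded in the nucleus, made in the cytosol and imported. Copies of stretches of the mitochondrial chromosome also lie in nuclear chromosomes, and a read that matches both places equally well cannot be assigned to one of them by its sequence.

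Total counts ranged from 1.65 to 6.42 M (mega) per library, with medians of 2.19 M for Vehicle, 2.24 for ATV:DNP02, 3.58 for DNL919 day 1, 2.65 for day 4 and 2.41 for day 7. Noncoding genes took 2.33% to 5.30% of the counts on DNL919 day 1 and 4.73% to 8.74% in ATV:DNP02. The 10 microglia markers summed to 24702 to 32286 CPM (counts per 1000000 counts of a library, with libraries scaled by the trimmed mean of M values, TMM) on DNL919 day 1 and 22106 to 38872 CPM in ATV:DNP02. A pair of libraries stood apart in 10 markers of monocytes and neutrophils, DNL919 day 4 replicate 6 with 7338 CPM and day 7 replicate 7 with 46679 CPM, while the next highest of their groups held 123 and 427 CPM. The fold changes of the mitochondrial genes were also computed without each library in turn.

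The sequences are shown first, because they bear on which of the 9 genes could be counted. Shared sequence was measured as the percentage of all 50-base windows of a gene that occur, on either strand, in an annotated nuclear transcript (GENCODE M21, GRCm38). All 9 genes lie on the plus strand of chromosome M. The share was 100% for mt-Co2, which takes electrons from cytochrome c into complex IV (chrM:7013-7696), 99.9% for mt-Co3, a core subunit of complex IV (chrM:8607-9390), and 99.5% for mt-Atp6, part of the proton channel of ATP synthase (chrM:7927-8607). These are the 3 genes with no counts.

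Of the 6 genes with counts, mt-Nd1 (chrM:2751-3707) and mt-Cytb (chrM:14145-15288) shared 0.0% of their windows. The share was 7.6% for mt-Nd5 (chrM:11742-13565), 8.2% for mt-Nd2 (chrM:3914-4951), 51.1% for mt-Co1 (chrM:5328-6872) and 62.2% for mt-Nd4 (chrM:10167-11544). Over the last 300 bases, nearest to where a 3′ kit reads, mt-Nd4 shared 0.0% and mt-Co1 100%.

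Most of the shared sequence lies in a block of 7 annotated copies on the minus strand of chromosome 1 (chr1:24611535-24616197). Over the 4149 aligned bases of these copies, 4142 were identical to the mitochondrial chromosome. The copies of mt-Co2 (Gm28661, 681 of 681 bases), mt-Co3 (Gm28437, 783 of 783) and mt-Atp6 (Gm10925, 678 of 678) had no mismatch. The copy of mt-Nd4 (Gm28439) matched its first 876 bases and stopped there.

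The end of mt-Co2 and the same stretch of its chromosome 1 copy show a gene that cannot be told from its copy up to the last codon. Capitals mark bases identical between gene and copy, and positions are chrM:7637-7696 (plus strand) and chr1:24614885-24614941 (minus strand).
mt-Co2: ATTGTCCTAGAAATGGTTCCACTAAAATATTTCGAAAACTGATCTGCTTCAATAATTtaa
Gm28661: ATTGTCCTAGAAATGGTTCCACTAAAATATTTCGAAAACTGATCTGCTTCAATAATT

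In mt-Nd4 the shared stretch ends inside the gene, at base 876 of 1378, so that its 3′ end is left unshared. The lines hold chrM:11013-11072 (plus strand) and chr1:24611535-24611564 (minus strand), with the identical bases in capitals.
mt-Nd4: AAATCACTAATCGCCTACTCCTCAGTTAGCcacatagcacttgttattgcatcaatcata
Gm28439: AAATCACTAATCGCCTACTCCTCAGTTAGC

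mt-Co1 is the opposite case, in which the copy begins at base 1054 of 1545 and runs to the last base. Its copy Gm29216 matched 486 of 492 bases, and the 6 mismatches (T1056A, C1057T, A1059G, A1060G, C1062A and A1066T, counted from 1 at the first base of mt-Co1, with the base of mt-Co1 first) lie at its start. The lines hold chrM:6351-6440 (plus strand) and chr1:24616138-24616197 (minus strand), with the identical bases in capitals.
mt-Co1: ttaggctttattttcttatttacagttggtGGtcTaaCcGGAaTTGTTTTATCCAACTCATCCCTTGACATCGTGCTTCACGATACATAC
Gm29216: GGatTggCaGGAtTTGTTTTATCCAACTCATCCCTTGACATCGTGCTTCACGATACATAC

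mt-Nd1, the member on which the results below turn, has no such window. Its last 60 bases (chrM:3648-3707, plus strand) are printed in lower case, since none was shared.
mt-Nd1: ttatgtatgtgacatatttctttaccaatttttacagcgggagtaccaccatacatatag

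**Figure D1:**
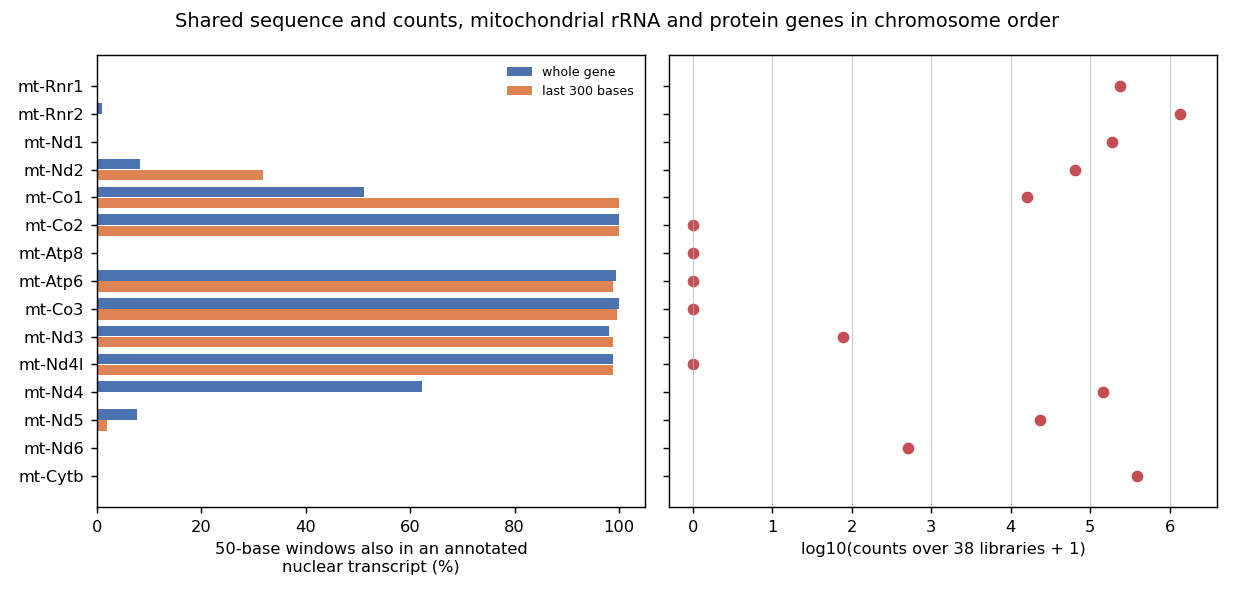
Left, percentage of 50-base windows of each mitochondrial rRNA and protein gene that also occur in an annotated nuclear transcript, for the whole gene (blue) and its last 300 bases (orange). Right, log10 of the counts over 38 libraries plus 1, where mt-Co2, mt-Co3, mt-Atp6, mt-Nd4l and mt-Atp8 sit at 0. mt-Atp8 does so with 0.0% of its 50-base windows in annotated nuclear transcripts, and unannotated nuclear sequence was not compared. Its end, shorter than 1 window, lies inside the nuclear copy of mt-Atp6.

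Counts followed this sharing in part. Among the 4 protein genes of the mitochondrial chromosome outside the 9, mt-Nd4l (98.8% shared) and mt-Atp8 (0.0% shared) had 0 counts, mt-Nd3 (98.0% shared) had 0 to 25 counts per library, and mt-Nd6 (0.0% shared) had 1 to 58. mt-Atp8, the shortest of these genes with 204 bases (chrM:7766-7969), is thus at 0 with no 50-base window in an annotated nuclear transcript. mt-Atp8 overlaps mt-Atp6, and mt-Nd4l (chrM:9877-10173) overlaps mt-Nd4 (from chrM:10167). How a 3′ kit counts such overlapping genes was not tested. The part of mt-Atp8 before chrM:7927 lies in a gap between the chromosome 1 copies of mt-Co2 (to chrM:7693) and mt-Atp6 (from chrM:7927). Its end, chrM:7927-7969, lies inside the copy of mt-Atp6, over fewer bases than a 50-base window. Of its 25-base windows 11.7% were shared. Unannotated sequence in the gap was not compared, so the rest of mt-Atp8 is not shown to lack a nuclear copy. mt-Co1 had 240 to 760 counts per library with its whole 3′ end shared. The part of shared sequence in the missing counts was not tested, since how reads with several matches were treated is not given in the sources used here.

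The rows of the copies did not hold the missing counts. Over all 38 libraries the chromosome 1 copies held 2 counts for mt-Co2 (Gm28661), 661 for mt-Co3 (Gm28437) and 1 for mt-Atp6 (Gm10925). A further copy of mt-Co2 on chromosome 2 (Gm13341) held 11 to 76 counts per library. Gm13341 fell on DNL919 day 1 against ATV:DNP02 by a log2 change of -1.13 ± 0.37 (SE; adjusted p = 0.0136 with limma-voom), while Gm28437 measured -1.14 ± 0.48 (adjusted p = 0.0592) and Gm28438, the copy of mt-Nd3, -1.83 ± 0.86 (adjusted p = 0.0945). These values come from the fit with group and batch alone, without library depth as a term, and other fits of these rows are not given.

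For mt-Co2, mt-Co3 and mt-Atp6 there is therefore no comparison between groups. A limit of 3 counts over a group of libraries allows up to 0.220 CPM in Vehicle, 0.160 in ATV:DNP02, and 0.0900, 0.136 and 0.147 on DNL919 days 1, 4 and 7. These limits hold for reads that were assigned to the rows and cover counting error only. They do not limit the transcripts in the cells.

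The 6 measured members differed widely in level. Per kilobase of gene, the median over the 38 libraries was 3287 CPM for mt-Cytb, 1646 for mt-Nd1, 1064 for mt-Nd4, 615 for mt-Nd2, 126 for mt-Nd5 and 104 for mt-Co1. Each gene was above the next in this order in 37, 37, 38, 38 and 30 of 38 libraries. mt-Nd5 and mt-Co1 are thus the pair whose order was least stable. A 3′ kit does not read in proportion to length, so the order is a description of these counts.

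DNL919 day 1 against ATV:DNP02 asks how the cells differed 1 day after the TREM2 antibody from cells exposed to an antibody on the same vehicle. In the fit with group and batch alone, 1 of the 6 tested members was called. With the library total as a covariate mt-Cytb was called as well, and with the noncoding share mt-Nd2, as given below. mt-Nd1, a core subunit of the membrane arm of complex I, rose by a log2 change of 0.87 ± 0.11 (SE; adjusted p = 2.45e-08 with limma-voom), a fold of 1.83 (95% interval 1.57 to 2.14). The other 5 genes were not called, and their estimates lay between -0.27 and 0.04. Of all 11189 genes tested, 35.7% were called in this comparison, 20.6% up and 15.1% down. The 1 call among 6 was a rise, and 6 genes are too few to tell this count from the background share.

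mt-Nd1 measured 1643 CPM at the lowest, 2727 at the median and 3013 at the highest on DNL919 day 1. ATV:DNP02 ran from 1111 through 1383 to 1657 CPM, and Vehicle from 1218 through 1354 to 1755 CPM. Of the 8 day 1 libraries, 7 were above every control library, and replicate 5, at 1643 CPM, lay inside the range of both control groups. The counts behind these values were 6100 to 18000 per library on day 1 and 2700 to 4100 in ATV:DNP02.

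mt-Nd1 was higher on day 1 in each batch. The mean log2 difference in CPM was 1.15, 0.92, 0.82 and 0.60 in batches 1 to 4, each with 2 libraries against 2. In females the log2 fold change was 1.04 ± 0.11 and in males 0.70 ± 0.22 (SE; adjusted p = 1.72e-08 and 0.0406 with limma-voom). The test of that difference, male minus female, gave -0.34 ± 0.23 (adjusted p = 0.868). None of the 6 genes was called for it, 0 at an unadjusted p under 0.05 and 0 with edgeR or DESeq2, and 0% of all genes were called.

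The libraries of DNL919 day 1 were deeper and had a lower noncoding share, as given above. With the library total as a covariate the log2 fold change of mt-Nd1 was 0.99 ± 0.14 (adjusted p = 6.96e-07), and with the noncoding share it was 0.76 ± 0.15 (adjusted p = 0.000209; SE, limma-voom). Scaling by library totals alone moved the median over all genes from 0.01 to -0.10 and mt-Nd1 to 0.77. Over its 31 alternatives mt-Nd1 was called 31 times, with adjusted p between 6.33e-12 and 0.0406.

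**Figure D2:**
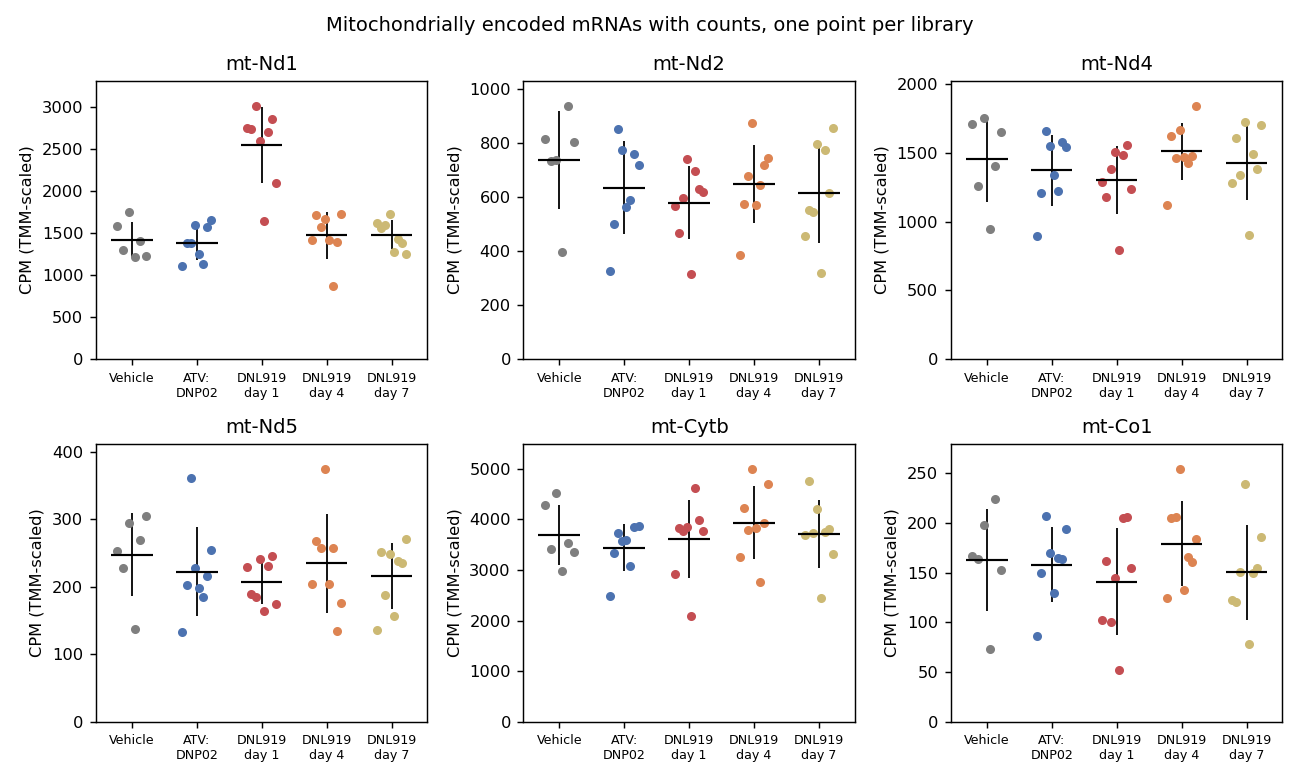
CPM (TMM-scaled) of the 6 measured genes in each library, by group; horizontal lines are group means and vertical lines 1 SD. For mt-Nd1 7 of 8 libraries of DNL919 day 1 sit above every Vehicle and ATV:DNP02 library, while the groups overlap throughout in the other 5 panels.

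mt-Nd2, mt-Nd4 and mt-Nd5 are further membrane-arm subunits of the same complex. mt-Nd4 measured 792, 1334 and 1561 CPM (lowest, median, highest) on DNL919 day 1 and 894, 1443 and 1662 CPM in ATV:DNP02, so the groups overlapped nearly over their whole range. Its log2 fold change was -0.08 ± 0.13 (SE, adjusted p = 0.669), with a 95% interval of -0.34 to 0.18. For mt-Nd2 the values were 314, 607 and 739 CPM against 325, 654 and 851 CPM, a log2 fold change of -0.13 ± 0.17 (adjusted p = 0.599; interval -0.46 to 0.21). For mt-Nd5 they were 164, 210 and 246 CPM against 133, 210 and 361 CPM, a log2 fold change of -0.06 ± 0.17 (adjusted p = 0.832; interval -0.41 to 0.29). None of these 3 intervals reaches the lower end of that of mt-Nd1, 0.65.

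The signs of these 3 estimates were not stable. With the library total as a covariate all 3 were above 0, and once the noncoding share was a covariate mt-Nd2 was 0.58 and past the threshold (adjusted p = 0.0244).

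mt-Cytb, cytochrome b of complex III, measured 2091, 3809 and 4630 CPM on DNL919 day 1 and 2492, 3584 and 3866 CPM in ATV:DNP02, and both the lowest and the highest library belonged to DNL919. Its log2 fold change was 0.04 ± 0.12 (SE; adjusted p = 0.838; interval -0.21 to 0.29). mt-Co1, the catalytic subunit of complex IV, measured 52.3, 150 and 206 CPM against 86.7, 164 and 207 CPM, a log2 fold change of -0.27 ± 0.21 (adjusted p = 0.341; interval -0.69 to 0.16). mt-Co1 had the fewest counts of the 6 and the widest interval. With the library total as a covariate mt-Cytb passed the threshold beside mt-Nd1, with a log2 fold change of 0.40.

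**Figure D3:**
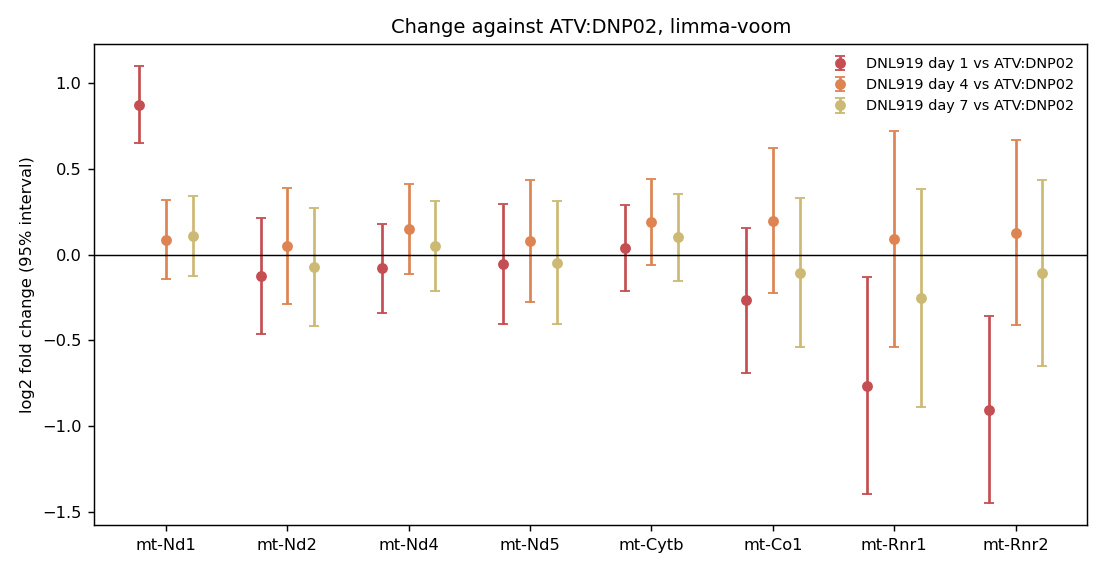
Log2 fold change against ATV:DNP02 with its 95% interval (limma-voom) for the 6 members and both mitochondrial rRNAs on DNL919 days 1, 4 and 7. On day 1 mt-Nd1 stands at 0.87 and mt-Rnr2 at -0.90, and the intervals of the other 5 members include 0 on all 3 days.

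To compare the members without any scaling between libraries, the log2 ratio of the counts of 2 members was taken within each library, a measure chosen after the values above had been seen. All 15 pairs were tested on each of the 3 days against ATV:DNP02 (45 two-sided exact permutation tests over 8 against 8 libraries, adjusted together). On day 1 all 5 pairs with mt-Nd1 passed, and 0 of the 10 pairs without it. These 5 pairs share the counts of mt-Nd1, so they are not 5 separate results. The permutations did not keep libraries within their batches. On days 4 and 7 0 of 15 pairs passed.

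The ratio of mt-Nd1 to mt-Nd4 was 0.97 ± 0.17 on DNL919 day 1 and 0.02 ± 0.18 in ATV:DNP02 (log2, mean ± SD, n = 8 each; exact permutation p = 0.000155, the smallest this design can give, adjusted p = 0.00175). All 8 libraries of day 1 were above all 8 of ATV:DNP02, and the difference in the 4 batches ran from 0.77 to 1.07. The ratio to mt-Cytb differed by 0.82 and that to mt-Co1 by 1.11, each with the same exact permutation p and again no overlap. The ratio to mt-Nd2 differed by 0.99 and 7 of 8 libraries lay above the controls (exact permutation p = 0.000311, adjusted p = 0.00280). The library in which the CPM of mt-Nd1 lay inside the control range, replicate 5, was thus above the controls once set against mt-Nd4.

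As a share of the counts of the 6 members, mt-Nd1 took 26.0% to 35.1% on DNL919 day 1, 16.8% to 22.0% in ATV:DNP02 and 16.4% to 21.2% in Vehicle. The 6 members together took 0.543% to 0.869% of all counts on day 1 and 0.535% to 0.913% in ATV:DNP02, so their sum overlapped between the groups. The share of mt-Cytb in that sum was 37.1% to 46.9% on day 1 against 45.3% to 50.7%, and that of mt-Nd4 13.7% to 16.6% against 17.7% to 20.3%. These shares add up to a fixed sum, so a larger share of mt-Nd1 lowers the others.

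**Figure D4:**
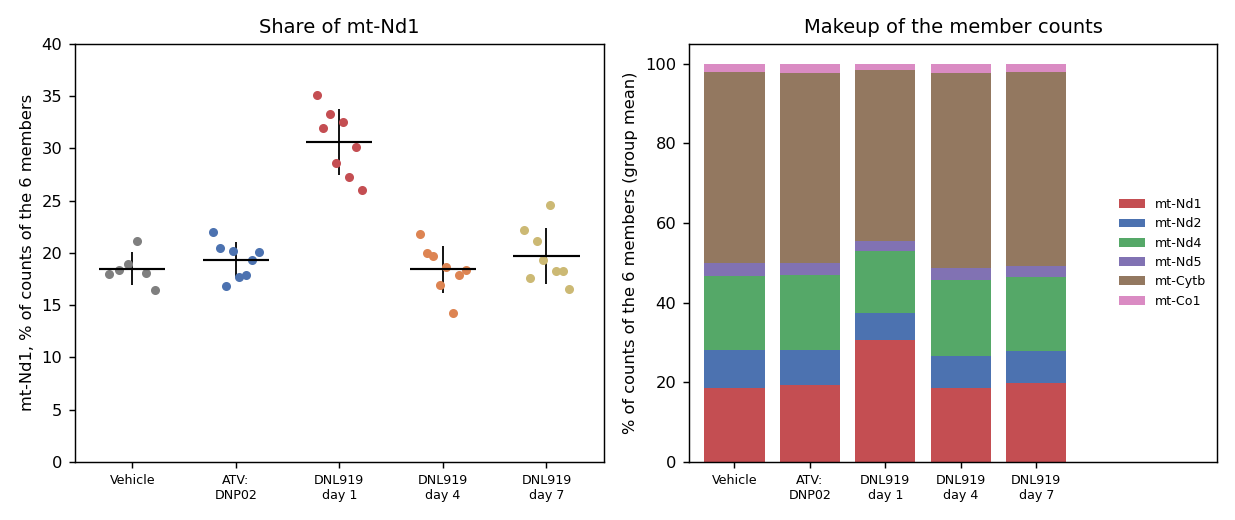
Left, mt-Nd1 as a percentage of the counts of the 6 members in each library (points), with group mean and SD. Right, the mean makeup of those counts by group; the mt-Nd1 part is 30.6% on DNL919 day 1 and between 18.4% and 19.7% in the other 4 groups.

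Of the 4 genes described next around mt-Nd1, mt-Rnr2 and mt-Ti were called lower on day 1 in the fit without a depth covariate, and mt-Rnr1 and mt-Tm were not called. mt-Rnr2, the 16S ribosomal RNA that lies just before it (chrM:1094-2675), measured 2539, 8425 and 11905 CPM on DNL919 day 1 and 4876, 14443 and 21621 CPM in ATV:DNP02, with all 8 day 1 libraries below the control median. It fell, with a log2 change of -0.90 ± 0.27 (SE; adjusted p = 0.00704 with limma-voom). mt-Rnr1, the 12S ribosomal RNA, measured -0.76 ± 0.31 (adjusted p = 0.0526). mt-Ti, the transfer RNA for isoleucine that follows mt-Nd1 and overlaps its last 2 bases (chrM:3706-3774), fell by 0.76 ± 0.28 on the log2 scale (adjusted p = 0.0329), from counts of 39 to 130 per library in ATV:DNP02. mt-Tm, the transfer RNA for methionine before mt-Nd2, was at -0.10 ± 0.28 (adjusted p = 0.805).

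The level of mt-Rnr2 moved with depth across the libraries. Over the 38 libraries the log2 CPM of mt-Rnr2 had a Pearson correlation of -0.84 with the log2 library total and of 0.77 with the noncoding share, while mt-Nd1 had 0.47 and -0.57. These values describe the libraries, in which depth and DNL919 day 1 go together. With the library total as a covariate mt-Rnr2 was at 0.24 and mt-Ti at -0.17, with the noncoding share at 0.41 and -0.11, and neither was called (adjusted p from 0.314 to 0.891). In males alone mt-Rnr2 was not called (adjusted p = 0.0844). mt-Ti was not called in females or in males alone (adjusted p = 0.242 and 0.214), nor without the batch term (adjusted p = 0.0607). With each library left out in turn mt-Rnr2 was called 16 of 16 times and mt-Ti 9 of 16 times (adjusted p from 0.0172 to 0.104). mt-Ti lost its call without DNL919 day 1 replicate 1, 2, 3 or 5 and without ATV:DNP02 replicate 3, 6 or 7.

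Against Vehicle, the comparison with mice given no antibody, day 1 gave the same picture for mt-Nd1. It rose by 0.83 ± 0.12 (log2 scale, SE; 8 against 6 libraries; adjusted p = 8.41e-07 with limma-voom), and 7 of 8 day 1 libraries were above all 6 Vehicle libraries. The other 5 members ran from -0.33 (mt-Nd2, adjusted p = 0.166) to -0.07 (mt-Cytb, adjusted p = 0.735) and were not called, and 33.2% of all genes were. Without Vehicle replicate 4, the lowest of its group for mt-Nd2, mt-Nd2 was called as well. mt-Rnr2 and mt-Rnr1 fell by 1.18 ± 0.29 and 1.04 ± 0.34 on the log2 scale (adjusted p = 0.00144 and 0.0151). With the library total as a covariate they were at -0.0053 and 0.28 (adjusted p = 0.991 and 0.545), with the noncoding share at 0.39 and 0.75 (adjusted p = 0.446 and 0.167), and in males alone neither was called (adjusted p = 0.136 and 0.251). mt-Rnr1 also lost its call without Vehicle replicate 1 or 5 and without DNL919 day 1 replicate 5.

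ATV:DNP02 against Vehicle asks whether the isotype antibody moved these genes by itself. None of the 6 was called, 0 had an unadjusted p under 0.05, edgeR and DESeq2 called 0, and 0% of all genes were called with limma-voom. The log2 fold changes lay between -0.20 for mt-Nd2 and 0.01 for mt-Co1. For mt-Nd1 it was -0.05 with a 95% interval of -0.30 to 0.21, which does not reach the size of the day 1 rise.

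Days 4 and 7 ask how long the difference lasted. mt-Nd1 measured 876, 1497 and 1724 CPM on day 4 and 1255, 1494 and 1728 CPM on day 7, and both groups overlapped ATV:DNP02 and Vehicle. Against ATV:DNP02 its log2 fold change was 0.09 ± 0.11 on day 4 (SE; interval -0.14 to 0.32) and 0.11 ± 0.12 on day 7 (interval -0.12 to 0.34; limma-voom adjusted p = 0.844 and 0.802). The upper ends of both intervals lie below the lower end of day 1, 0.65.

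None of the 6 members was called on either day against either control. Against ATV:DNP02 they ran from 0.05 to 0.20 on day 4 and from -0.10 to 0.11 on day 7 (log2), where 1.76% and 1.50% of all genes were called. Against Vehicle, where 1.03% and 0.965% of all genes were called, they ran from -0.15 to 0.20 and from -0.28 to 0.06. In all 4 comparisons 0 of 6 had an unadjusted p under 0.05, and edgeR and DESeq2 called 0.

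The return was itself tested between days. From day 1 to day 4 mt-Nd1 fell by 0.79 ± 0.11 on the log2 scale (SE; adjusted p = 3.04e-07 with limma-voom), and from day 1 to day 7 by 0.77 ± 0.11 (adjusted p = 7.23e-07), with 31.8% and 28.0% of all genes called. Below every day 1 library lay 5 of 8 libraries of day 4 and 7 of 8 libraries of day 7. mt-Co1 was 0.46 ± 0.21 higher on day 4 than on day 1 and not called (adjusted p = 0.0814). It was called without DNL919 day 1 replicate 2 and without replicate 6. mt-Rnr2 rose again by 1.03 ± 0.27 from day 1 to day 4 (adjusted p = 0.00247) and by 0.80 ± 0.27 to day 7 (adjusted p = 0.0223). Neither of these was called with the library total (0.23 and -0.18; adjusted p = 0.456 and 0.623) or the noncoding share as a covariate (0.34 and 0.21; adjusted p = 0.264 and 0.525), nor in males alone. The second was called in 11 of 16 fits with 1 library left out, and was lost without DNL919 day 7 replicate 2, 4, 6 or 8 or day 1 replicate 5. From day 4 to day 7 none of the 6 was called, 0 had an unadjusted p under 0.05, edgeR and DESeq2 called 0, and 0% of all genes were called.

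The lowest mt-Nd1 value of all 38 libraries, 876 CPM, belonged to DNL919 day 4 replicate 6, which also held 7338 CPM of monocyte and neutrophil markers. Leaving out each library in turn kept the day 4 estimate of mt-Nd1 between 0.02 and 0.16 and the day 7 estimate between 0.04 and 0.15 (log2). Day 7 replicate 7, with the highest marker sum, measured 1387 CPM of mt-Nd1, within the range of its group.

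The nuclear subunits of the same complexes give the setting for these values, and their day 1 rise was known when the list was drawn up. Of 78 nuclear subunits tested, 69 rose and 1 fell on DNL919 day 1 against ATV:DNP02, with a median log2 fold change of 0.86, beside 0.01 over all genes tested, of which 20.6% rose and 15.1% fell. For complex I, which takes electrons from NADH, 30 of 36 rose (median 0.69), led by Ndufs5 at 2.56 ± 0.50 (SE; adjusted p = 5.95e-05 with limma-voom) from a median of 2.09 CPM to 13.8 CPM. For complex II, which has no mitochondrially encoded subunit, 3 of 4 rose (median 0.68), with the iron-sulfur subunit Sdhb at 1.06. For complex III all 9 rose (median 0.83), with Uqcrb at 1.61. For complex IV 11 of 12 rose (median 1.15), with Cox7b at 1.52, and Cox7a2l, which takes part in joining complexes III and IV, fell by 0.53 on the log2 scale. For complex V 16 of 17 rose (median 1.16), with the catalytic subunit Atp5b at 1.89 ± 0.22 (adjusted p = 2.10e-09).

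Set among these, mt-Nd1 lay inside the nuclear range of its complex. Of the 36 nuclear complex I subunits 9 had a larger log2 fold change, and of all 78 it was 38. mt-Nd2, mt-Nd4 and mt-Nd5, at -0.13 to -0.06, lay below every one of the 36, whose lowest was 0.27. mt-Cytb at 0.04 lay below all 9 nuclear subunits of complex III, whose lowest was 0.50. mt-Co1 at -0.27 lay below 11 of the 12 of complex IV, all but Cox7a2l. These places hold for the fit without a depth covariate. With the library total or the noncoding share as a covariate, mt-Nd2, mt-Nd4 and mt-Nd5 reached up to 0.58, 0.33 and 0.54. In those fits mt-Cytb and mt-Co1 reached up to 0.40 and 0.43. The nuclear subunits are not given for those fits, so their distance from the members there is not shown. In bulk samples a change per cell and a change in the makeup of the sorted cells cannot be told apart.

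**Figure D5:**
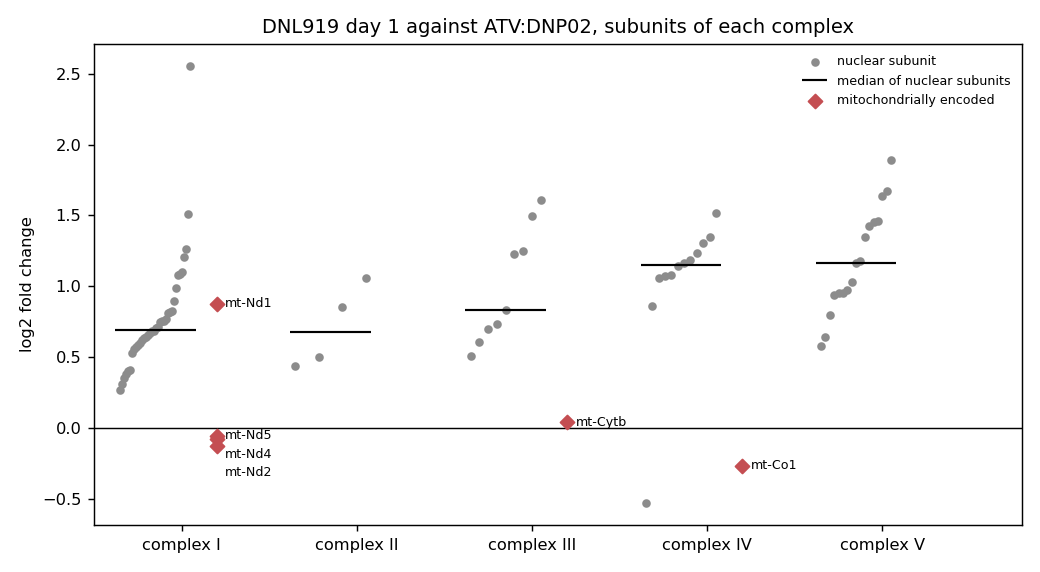
Log2 fold change on DNL919 day 1 against ATV:DNP02 of each nuclear subunit (grey, with the median as a line) and each measured mitochondrially encoded subunit (red) by complex. In this fit, which has no depth covariate, mt-Nd1 at 0.87 sits among the nuclear subunits of complex I, and the other 5 sit at or below 0.04.

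On days 4 and 7 the nuclear subunits were near the controls as well. Against ATV:DNP02 1 of 78 rose on day 4 and 0 on day 7, with medians of 0.12 and 0.15 (log2), beside 1.76% and 1.50% of all genes called.

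Genes that act on mitochondrial transcripts were described from lists drawn up with earlier results known, and the counts of these lists are to be read against the 20.6% of all genes that rose and the 15.1% that fell. Of 28 genes of mitochondrial transcription and RNA maturation 8 rose and 0 fell on day 1 (median 0.30), and Fastkd3, a mitochondrial RNA-binding protein, measured 2.60 ± 0.72 (SE; adjusted p = 0.00347) from a median of 5.29 to 19.3 CPM. Of 20 genes of mitochondrial DNA replication and upkeep 5 rose and 5 fell (median 0.09). Dna2, a nuclease and helicase that acts in the nucleus too, rose by 4.24 ± 0.83 from a median of 0.211 to 10.4 CPM, and Rrm2b, which makes deoxynucleotides outside S phase, fell by 1.32 ± 0.41 on the log2 scale (adjusted p = 0.0100). Of 15 genes of mitochondrial translation 4 rose and 1 fell (median 0.38), with Taco1, which aids translation of mt-Co1, at 2.65 ± 0.87 from a control median of 0 CPM, and the initiation factor Mtif3 at -0.97 ± 0.27. Of 7 regulators of mitochondrial biogenesis 1 rose, Myc (1.00 ± 0.28), and 1 fell, Gabpa (-0.79 ± 0.32).

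Markers of other cells are given beside the 35.7% of all genes called in this comparison (20.6% up, 15.1% down). The 8 astrocyte markers summed to 132 to 274 CPM on DNL919 day 1 and 205 to 328 CPM in ATV:DNP02, and 1 of 4 tested, Slc1a3, fell. The 8 oligodendrocyte markers summed to 60.2 to 167 against 77.9 to 269 CPM, the 8 neuron markers to 15.8 to 40.5 against 24.6 to 107 CPM (0 of 5 called), and the 8 endothelial markers to 5.96 to 24.4 against 8.18 to 32.9 CPM (1 of 2, Pecam1, fell, with Cldn5 and Tek at 0 counts on day 1 and Cdh5 and Tek at 0 in the controls). The 8 border-associated macrophage markers summed to 7.21 to 547 against 101 to 1174 CPM, and 2 of 8 fell, Cbr2 the most (-1.32). Of 6 monocyte and neutrophil markers tested 0 were called, with sums of 16.4 to 357 against 3.51 to 588 CPM, Ltf at 0 counts on day 1, and Ngp, Camp and Ltf at 0 in the controls. Among the 10 microglia markers 1 rose, Aif1 (0.47 ± 0.13), and 3 fell, P2ry12 the most (-1.51 ± 0.17). Their part in the values of the mitochondrial genes was not tested.

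With all 38 libraries pooled, mt-Nd1 correlated less with the other 5 members than these did with each other. Pearson correlations of log2(CPM + 1) among mt-Nd2, mt-Nd4, mt-Nd5, mt-Cytb and mt-Co1 ran from 0.44 (mt-Nd5 with mt-Cytb) to 0.87 (mt-Nd2 with mt-Nd4). Those of mt-Nd1 with these 5 ran from 0.06 (mt-Nd5) to 0.38 (mt-Cytb). All values come from the same 38 libraries and share their depth and scaling, so they are a description. The groups are pooled, so the day 1 rise of mt-Nd1 enters its values, and no correlation within a group was computed. mt-Rnr2 went with the 5 members other than mt-Nd1, at 0.61 (mt-Nd5) to 0.87 (mt-Nd2), and against mt-Nd1 at -0.27.

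Genes whose pattern was most like that of the members were found by the Pearson correlation of log2(CPM + 1) over the 38 libraries, again as a description. With the mean of the 6 members the highest off the mitochondrial chromosome were Gm6472, Gm6204, Gm8960, Rpl27-ps3 and Rpl37rt (0.83 to 0.80), and the lowest were Cmtm6, Fos and Rps6ka1 (-0.80 to -0.79). With mt-Nd1 alone, a choice made after its values were seen, the highest were Nop10, Bola2, Cox6a1 and Atp5mpl (0.94 to 0.92), and the lowest Cd33, Snn and Arhgap45 (-0.88 to -0.85). Cox6a1 is a nuclear subunit of complex IV and Atp5mpl of complex V. Gm6472, Gm6204 and Gm8960 are annotated as processed pseudogenes.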

How the data were processed

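Per the submitters' processing notes, the authors aligned reads with STAR and counted genes with featureCounts of Subread 1.6.2 on GRCm38.p6. The annotation release, strand setting, duplicate handling and treatment of reads with several matches are not given in the sources used here. Without strand, mt-Nd6 and the genes opposite it cannot be told apart where they overlap. The deposited raw counts of 100 or more were rounded to 2 significant digits, up to 5% of a value for the members. The deposited normalized signal is CPM made by the authors, used in 1 alternative. The library sizes and the scaling factors (a ratio per library) listed by the authors served 1 alternative too. The sources put the sorted region once as cortex with hippocampus and once as brain without cerebellum.

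The test was two-sided limma-voom (limma 3.58.1; TMM from edgeR 4.0.16; R 4.3.3), fitted to the counts of all 38 libraries with terms for group and batch. The edgeR filter (minimum count 10, total 15, proportion 0.7) kept 11189 of 25246 genes with a count. Genes with a Benjamini-Hochberg adjusted p under 0.05 over all genes tested were called. CPM was computed from the counts with TMM factors. Alternatives were edgeR, DESeq2 1.42.0, other scalings, filters and covariates, sexes, single batches and leaving out each library. The procedure was run on simulated counts with known changes and no batch or noncoding-share effect, so that run does not bear on those effects. Sequences are GENCODE M21 transcripts (GRCm38), compared with annotated transcripts alone, and M21 names were taken by gene ID where the deposited symbols differ. Named genes were the 9 members, other mitochondrial genes and copies with counts, the largest rise and fall of each list, and the genes most and least like the members; some genes under this rule are not reported here. Members and lists were chosen with earlier results of these data known. Replicate numbers follow the order of the labels. Identical counts were found in 0 pairs of libraries within a group.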

Additional observations from a re-analysis of the deposited data

Results flagged for a closer look

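Of 30 sets of values (6 members in 5 groups), 2 held a library whose gap to its nearest neighbour was large for the range of its group. By chance about 1 set in 20 does so. mt-Nd1 was 876 CPM in DNL919 day 4 replicate 6, the lowest of its 8 libraries, and that library also held 7338 CPM of monocyte and neutrophil markers. mt-Nd2 was 396 CPM in Vehicle replicate 4, the lowest of its 6 libraries. The effect of either library on the comparisons is given with the results above.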

How the results depend on the processing

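On day 1 against ATV:DNP02 mt-Nd1 kept its direction and its call in 31 of 31 alternatives with a test (0.81 to 0.94 with each library left out). Single batches, 2 libraries against 2 and without a test, gave 0.60 to 1.15. Of the 6 genes 1 was called whenever DNL919 day 1 was compared with another group. The calls became 2 against ATV:DNP02 with the library total (mt-Cytb added) or the noncoding share (mt-Nd2 added) as a covariate. They became 2 against Vehicle with library totals (mt-Nd2), and ran from 1 to 2 with each library left out. From day 1 to day 4 they became 2 with library totals and in females alone (mt-Co1) and without the low-count filter (mt-Cytb), and ran from 1 to 2 with each library left out; from day 1 to day 7 they became 2 without the filter (mt-Cytb). Over all genes 3991 were called on day 1 against ATV:DNP02, 10678 without the filter, 979 in males, and 2158 once the noncoding share was a term.

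The uncalled estimates near 0 changed sign as follows (log2 fold change against ATV:DNP02; the cause was not tested). On day 1 the library total as a covariate gave mt-Nd2 0.42, mt-Nd4 0.33, mt-Nd5 0.31 and mt-Co1 0.34, the noncoding share 0.58, 0.29, 0.54 and 0.43 in the same order, females alone mt-Nd2 0.046 and mt-Nd4 0.059, and mt-Cytb was -0.075 with library totals and -0.056 in males. Leaving out each library gave mt-Nd4 -0.17 to 0.0050, mt-Nd5 -0.16 to 0.035 and mt-Cytb -0.047 to 0.13. On day 4 males alone gave mt-Nd1 -0.076, mt-Nd5 -0.18 and mt-Co1 -0.022, and leaving out each library mt-Nd2 -0.056 to 0.12 and mt-Nd5 -0.025 to 0.19. On day 7 males alone gave mt-Nd1 -0.059, mt-Nd4 -0.091, mt-Nd5 0.042 and mt-Cytb -0.13, females alone mt-Nd2 0.0039 and mt-Co1 0.075, the library total mt-Nd2 0.0093 and mt-Nd5 0.0090, and the noncoding share mt-Nd2 0.32, mt-Nd5 0.29 and mt-Co1 0.29. Leaving out each library there gave mt-Nd2 -0.18 to 0.042, mt-Nd4 -0.033 to 0.12 and mt-Nd5 -0.15 to 0.044. Of 24 single-batch values of the 6 genes on each day, 7, 8 and 12 had the sign opposite to the estimate on days 1, 4 and 7; on day 1 batch 1 gave mt-Nd2 0.35, mt-Nd4 0.24, mt-Nd5 0.34 and mt-Co1 0.18.

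No paired analysis was possible because the replicate numbers follow the order of the labels and pair no libraries; the batch is already a term. Low counts limit mt-Co1 most, with 240 to 760 per library, and the part of depth and of its shared 3′ end in them was not tested. The 3 genes at 0 counts cannot be compared at all.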

Other observations

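mt-Nd6, the one protein gene on the other strand of the mitochondrial chromosome, was not among the 9 but passed the filter, with 1 to 58 counts per library. It measured 2.06 to 15.9 CPM on DNL919 day 1 and 0.432 to 9.33 CPM in ATV:DNP02, a log2 change of 0.92 ± 0.62 (SE; adjusted p = 0.261 with limma-voom). Its estimate was near that of mt-Nd1, and its 95% interval ran from -0.33 to 2.17.

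mt-Nd3 had counts in 16 of 38 libraries. DNL919 day 1 held 53 of its 76 counts, 25 of them in replicate 1 (28 without it), against 4 in ATV:DNP02 and 1 in Vehicle, from total counts of 33.3, 18.7 and 13.6 M. It was not tested. Its copy on chromosome 1, Gm28438, differs from the first 345 bases of mt-Nd3 by T3C (counted from the first base of mt-Nd3, with its base first) and held 43 counts on day 1 and 64 in ATV:DNP02.

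Among the transfer RNA rows, mt-Tc measured -1.26 ± 0.56 against ATV:DNP02 on day 1 (log2, SE; limma-voom adjusted p = 0.0719) and fell against Vehicle, with -2.12 ± 0.56 (adjusted p = 0.00292); the second was not called with the library total (-1.10, adjusted p = 0.274) or the noncoding share (-0.94, adjusted p = 0.526) as a covariate, nor in males alone. mt-Ta measured -1.18 ± 0.57 and mt-Tq -1.02 ± 0.57 against ATV:DNP02 (adjusted p = 0.107 and 0.165). From day 1 to day 4 mt-Ti rose by 1.65 ± 0.27 (adjusted p = 4.22e-06).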
